A study of Homo sapiens with 6 samples.

Results

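The heat shock protein (HSP) chaperones and J-domain proteins were described in H460 cells with and without glutamine. The members were all counted gene symbols that begin with HSPA, HSPB, HSPD1, HSPE1, HSPH1, HSP90, DNAJA, DNAJB or DNAJC, except HSPBP1 and HSPBAP1, together with BAG3, HSF1, HSF2 and CHORDC1. This rule found 89 of 24462 symbols, and 66 of them passed the filter on low counts and were tested. By the known location of their products, 49 members belong to the cytosol and nucleus, 14 to the endoplasmic reticulum (ER) and 8 to mitochondria. A further 12 are pseudogenes, antisense transcripts or readthrough transcripts, and 6 were not placed in a compartment. Of the 23 members that the filter removed, 8 had no count in any library.

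The line H460 was derived from a human lung cancer. Depleted cells were held for 24 h in RPMI 1640 lacking glutamine, with dialyzed serum. Replete cells had glutamine and are labelled as glutamine repletion, with no time given. Serum was at 10% in both groups. There were 3 libraries per group, made from polyadenylated 3′ ends. The labels give dialyzed serum only for the depletion and are silent on separate cultures. The serum therefore cannot be told apart from the glutamine, and the p-values reflect only library-to-library spread, possibly of technical origin.

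Chaperones bind unfolded stretches of proteins and help them fold, or pass them on to degradation. HSP70 proteins clamp onto a client when they split ATP, J-domain proteins bring the client and trigger that step, and HSP110 and BAG proteins free the client by exchanging the nucleotide. HSP90 matures kinases and receptors that HSP70 hands over, small HSPs hold aggregating proteins without ATP, and each compartment has its own set. The transcription factor HSF1 induces many cytosolic members in stressed cells through heat shock elements. The unfolded protein response induces ER members such as HSPA5 through the ER stress element.

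Promoter windows of 8 members are shown to place these elements in cytosolic members that fell (the first 4), cytosolic members that rose (DNAJB6 and CHORDC1) and ER members. They were taken from RefSeq (GRCh38.p14) and run 5′ to 3′ on the gene's strand from 250 bases before to 50 bases after the start. Capitals mark the core of a heat shock element, GAANNTTC or TTCNNGAA on either strand, including overlapping matches, in the first 6 windows. In the last pair, capitals mark the ER stress element, which is CCAAT and CCACG with 9 bases between them, on either strand.
HSPA1A (chr6:31815293-31815592, plus strand): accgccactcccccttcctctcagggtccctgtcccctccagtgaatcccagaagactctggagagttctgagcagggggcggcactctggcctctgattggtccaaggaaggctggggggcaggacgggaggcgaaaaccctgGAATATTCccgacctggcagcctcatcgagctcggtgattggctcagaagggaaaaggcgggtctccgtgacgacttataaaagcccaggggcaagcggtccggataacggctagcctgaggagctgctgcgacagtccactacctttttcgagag
HSPA8 (chr11:123062087-123062386, minus strand): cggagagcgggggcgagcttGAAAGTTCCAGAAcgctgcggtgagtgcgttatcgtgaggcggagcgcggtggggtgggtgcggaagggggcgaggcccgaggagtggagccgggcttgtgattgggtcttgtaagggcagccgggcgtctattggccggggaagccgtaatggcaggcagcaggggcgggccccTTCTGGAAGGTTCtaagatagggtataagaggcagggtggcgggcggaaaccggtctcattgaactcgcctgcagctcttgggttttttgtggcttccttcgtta
HSPB1 (chr7:76302423-76302722, plus strand): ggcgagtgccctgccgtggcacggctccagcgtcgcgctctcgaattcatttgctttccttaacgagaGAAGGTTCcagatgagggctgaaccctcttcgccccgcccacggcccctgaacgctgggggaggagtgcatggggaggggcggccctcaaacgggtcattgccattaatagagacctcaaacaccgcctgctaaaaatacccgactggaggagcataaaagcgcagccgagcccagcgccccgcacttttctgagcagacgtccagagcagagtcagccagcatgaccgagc
DNAJA1 (chr9:33025023-33025322, plus strand): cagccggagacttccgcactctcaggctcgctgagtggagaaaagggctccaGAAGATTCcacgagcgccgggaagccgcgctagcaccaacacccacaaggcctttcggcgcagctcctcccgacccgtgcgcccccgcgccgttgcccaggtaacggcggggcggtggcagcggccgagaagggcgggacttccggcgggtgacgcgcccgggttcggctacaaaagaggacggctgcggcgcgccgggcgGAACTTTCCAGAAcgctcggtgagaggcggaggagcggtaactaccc
DNAJB6 (chr7:157336754-157337053, plus strand): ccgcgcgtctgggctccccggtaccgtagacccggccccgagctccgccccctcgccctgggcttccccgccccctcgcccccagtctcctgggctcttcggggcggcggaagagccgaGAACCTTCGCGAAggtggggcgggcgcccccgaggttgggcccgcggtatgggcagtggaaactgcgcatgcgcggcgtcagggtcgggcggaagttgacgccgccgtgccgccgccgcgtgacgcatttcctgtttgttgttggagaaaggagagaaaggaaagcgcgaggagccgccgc
CHORDC1 (chr11:90223000-90223299, minus strand): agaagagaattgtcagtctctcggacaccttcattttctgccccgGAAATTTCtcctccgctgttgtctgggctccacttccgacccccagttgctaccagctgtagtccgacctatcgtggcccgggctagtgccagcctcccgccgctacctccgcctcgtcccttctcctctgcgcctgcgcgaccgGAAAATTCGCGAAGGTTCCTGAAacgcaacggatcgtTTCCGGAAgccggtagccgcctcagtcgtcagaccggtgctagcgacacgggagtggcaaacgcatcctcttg
HSPA5 (chr9:125241294-125241593, minus strand): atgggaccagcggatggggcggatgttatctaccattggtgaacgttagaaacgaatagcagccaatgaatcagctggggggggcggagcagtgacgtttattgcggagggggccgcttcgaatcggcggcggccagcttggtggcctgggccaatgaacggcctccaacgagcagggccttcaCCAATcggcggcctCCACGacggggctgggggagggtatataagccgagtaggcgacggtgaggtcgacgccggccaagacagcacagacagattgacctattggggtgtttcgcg
HSP90B1 (chr12:103930160-103930459, plus strand): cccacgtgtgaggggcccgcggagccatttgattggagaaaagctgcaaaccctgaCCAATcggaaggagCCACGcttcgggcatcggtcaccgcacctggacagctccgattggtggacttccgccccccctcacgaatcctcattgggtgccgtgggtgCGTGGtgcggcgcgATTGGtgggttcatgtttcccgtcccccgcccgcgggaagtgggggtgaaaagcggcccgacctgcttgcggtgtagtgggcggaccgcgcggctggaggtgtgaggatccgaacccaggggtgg

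CHORDC1 held 6 core matches, HSPA8 held 4, DNAJA1 3, DNAJB6 2, and HSPA1A and HSPB1 held 1 each. Promoters were found for 75 of the 89 members. At least 1 core was present in 4737 of all 35116 promoters of the same length (13.5%) and in 15 of 68 protein-coding members (22.1%). All promoters include those of noncoding genes, so the background shares given here are of another kind of set than the members. By compartment, a core was present in 13 of 43 cytosolic, 0 of 13 ER and 2 of 8 mitochondrial members. Among cytosolic members with a promoter, it was present in 2 of 18 that rose (11.1%), namely DNAJB6 and CHORDC1, and in 6 of 13 that fell (46.2%), namely HSPA1A, HSPA1B, HSPA8, DNAJA1, HSPB1 and HSPB6. Of these, HSPA1A and HSPA1B are near-identical neighbours. No core was found for DNAJB1 or HSPH1, which rose, or for BAG3 or HSP90AA1, which fell. DNAJB1 and BAG3 are known HSF1 targets, so the search does not mark every heat shock gene. The ER stress element was present in 27 of all promoters (0.0769%) and in 2 of 13 ER members. These were HSPA5, with 1 match, and HSP90B1, with 2. Such matches describe the letters of these windows and were given no test.

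Depleted libraries held 8667798 to 10914899 counts and replete libraries 7550849 to 9028230. A gene without counts could thus have had up to 0.275 to 0.397 counts per 1000000 (CPM), which is 3 counts. Depleted replicate 2 stood apart. Per degree of freedom, the chi-square over genes was 19.4 and 11.7 between it and the other depleted libraries, 3.92 between those others and 1.51 to 2.03 between replete libraries. Depleted replicate 2 was the lowest depleted library for 35 of the 66 tested members and the highest for 20. It lay more than 1.5-fold above both others for 0 and more than 1.5-fold below both for 6. These 6 were BAG3, DNAJB4, DNAJC22, DNAJC3-AS1, HSPB8 and HSPE1-MOB4. The same counts were not made over all genes, so they are not a trait of the members. Levels are in CPM of the library total, and log2 fold changes are of depleted over replete cells under trimmed-mean scaling. Scaling by library totals in place of this would move the median gene by −0.23. The summed CPM of 5 epithelial markers was 761 to 881 in depleted and 2067 to 2091 in replete libraries, carried by keratins, with EPCAM at 0.505 CPM or less and CDH1 near 0. Of 3 endothelial markers, 2 were at 0 everywhere. The 4 leukocyte markers summed to 4.04 to 5.61 CPM in depleted and 6.20 to 8.72 CPM in replete libraries, and the 4 fibroblast markers to 10.8 to 79.95 CPM in depleted and 15.3 to 26.9 CPM in replete libraries. Depleted replicate 3 alone gave the upper end, with 56.5 CPM of COL1A1. The part of these levels in the results was not tested. Bulk RNA cannot tell fewer expressing cells from less RNA per cell.

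Of the 66 tested members, 33 rose and 25 fell in depleted cells, and 8 passed in neither direction, by the quasi-likelihood test of edgeR at a threshold of 0.05 for the adjusted p. Of all 12739 genes tested, 78.6% passed in either direction, 39.1% higher and 39.4% lower, against 87.9% of members. The CPM ranges of the groups did not overlap for 60 members, against a background of 81.0% of all genes. By more than 2-fold, 14 members rose and 14 fell, while 21.8% of all genes rose and 23.7% fell by that much, so these counts are near the background. The median log2 fold change of the members was 0.27, with a range of −5.05 to 4.33, beside a median of −0.02 over all genes tested. With library totals, 27 members rose and 29 fell, against 32.4% and 46.5% of all genes, and the members' median was 0.05 beside −0.25 over all genes.

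By compartment and family, the counts ran in different directions. In the cytosol and nucleus, 20 of 35 tested members rose (57.1%) and 13 fell (37.1%), beside 39.1% and 39.4% of all genes tested. Within that compartment, 14 of 18 tested J-domain members rose (77.8%) and 4 fell (22.2%), with a median log2 fold change of 0.89. Of the 10 tested cytosolic HSP70, HSP90 and small HSP members, 8 fell (80%) and 1 rose (10%), with a median of −2.27. All 3 cytosolic HSP110 members rose. In the ER, 9 of 14 rose (64.3%) and 3 fell (21.4%), with a median of 0.41. In mitochondria 3 of 8 rose and 3 fell (37.5% each way, median −0.13), which is near the background. With library totals, 6 of the 14 ER members rose and 4 fell, against 32.4% and 46.5% of all genes.

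**Figure D1:**
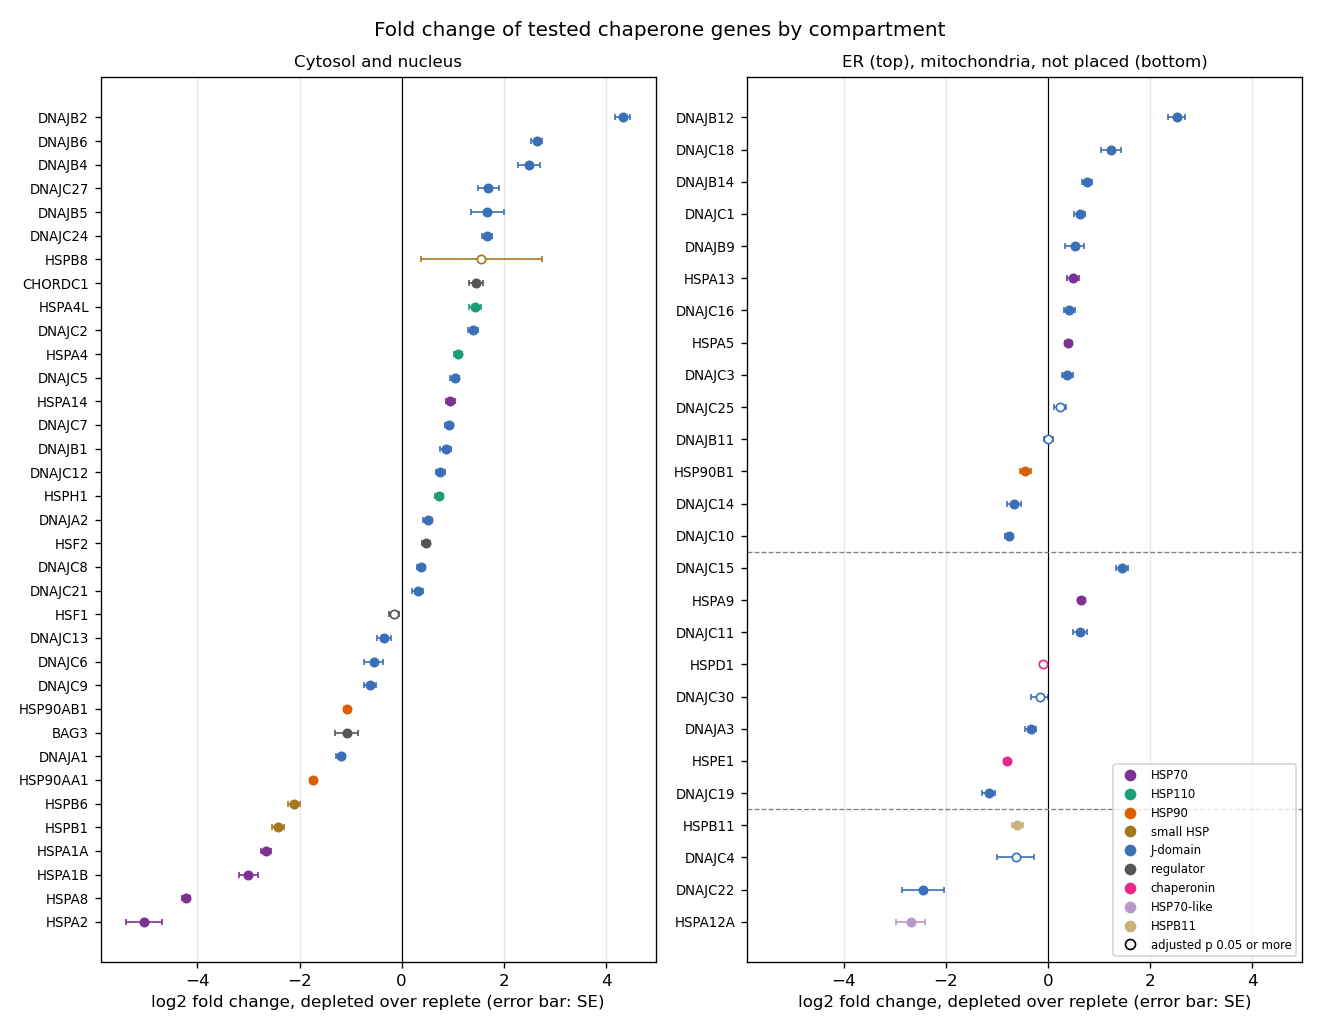
Log2 fold change (depleted over replete, with SE) of tested members by compartment, without pseudogene, antisense and readthrough members. Points are members, coloured by family and sorted by change, and open points did not pass. The solid line marks 0. Dashed lines separate the ER, mitochondria and members not placed. Cytosolic HSP70, HSP90 and small HSP members lie mostly below 0 (median −2.27), cytosolic J-domain members mostly above it (median 0.89), and ER members nearer to it (−0.76 to 2.52).

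Most HSP70 genes of the cytosol fell. HSPA8 encodes HSC70, the constitutive HSP70 of growing cells. It stood at 20.6, 18.8 and 19.6 CPM in depleted libraries, against 451, 418 and 426 CPM in replete libraries. This is a change of −4.23 on the log2 scale (SE 0.08, edgeR adjusted p = 2.83e-13), and the groups lay far apart with little spread within either. The stress-inducible HSPA1A stood at 13.01, 13.5 and 12.7 CPM in depleted and 100.4, 95.1 and 92.4 CPM in replete libraries (−2.65, SE 0.10, edgeR adjusted p = 5.61e-11). Its near-identical neighbour HSPA1B had 3.30, 2.52 and 4.96 CPM in depleted and 30.8, 35.2 and 34.4 CPM in replete libraries (SE 0.19, edgeR adjusted p = 8.96e-09). Reads of this pair can be split arbitrarily, and with both genes summed the log2 fold change was −2.73. Every depleted library was below every replete library for both genes.

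HSPA2, an HSP70 best known from sperm development, had 5 counts over the depleted libraries and 179 over the replete libraries. Scaled by library totals, this is a ratio of 0.0242, with an exact 95% counting interval of 0.00775 to 0.0575, which covers counting error only. HSPA6 and HSPA1L, further HSP70 genes, were barely counted. HSPA6, which is induced mainly by severe stress, had 5 counts in depleted and 10 in replete libraries (ratio 0.433, interval 0.116 to 1.39), so no difference was detectable at this depth. HSPA1L had 7 counts in depleted and 20 in replete libraries (ratio 0.303, interval 0.108 to 0.746).

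HSPA14 was the cytosolic HSP70 that rose. It pairs with the J-domain protein DNAJC2 in the ribosome-associated complex, which meets nascent chains. HSPA14 stood at 60.3, 59.3 and 57.9 CPM in depleted and 37.5, 37.1 and 32.4 CPM in replete libraries (0.95, SE 0.09, edgeR adjusted p = 7.03e-07), with no overlap. Its partner DNAJC2 also rose, at a log2 fold change of 1.40, although exons of DNAJC2 overlap those of PMPCB. Of the 66 tested members, 24 have exons that overlap a counted symbol, 18 of them on the opposite strand, and no source says that strand was used in counting, so their reads may be shared.

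Both cytosolic HSP90 genes fell. HSP90AA1, the more inducible isoform, stood at 1072, 1055 and 1163 CPM in depleted and 4289, 4156 and 4381 CPM in replete libraries (−1.74, SE 0.06, edgeR adjusted p = 3.57e-11). HSP90AB1, the constitutive isoform, stood at 2129, 2084 and 2156 CPM in depleted and 5271, 5089 and 5268 CPM in replete libraries (−1.07, SE 0.05, edgeR adjusted p = 8.25e-10). Neither gene had overlapping groups. HSP90AA1 fell further: per 100 counts of HSP90AB1 it had 50.4, 50.6 and 53.9 in depleted libraries and 81.4, 81.7 and 83.2 in replete libraries, and the log2 ratio differed by −0.67 (SE 0.03). For this ratio an exact two-sided permutation test gave p = 0.1 (0.133 adjusted), the smallest that 3 against 3 allows. The adjustment was over 8 such ratios between members, chosen after their values were seen. Among these, the exact two-sided permutation test gave p = 0.4 for HSPA1B per HSPA1A and for the pseudogene HSP90B2P per HSP90B1. Exons of HSP90AA1 overlap those of WDR20.

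Of the small HSPs, HSPB1 and HSPB6 fell and HSPB8 did not pass. HSPB1, known as HSP27, stood at 20.2, 26.8 and 24.5 CPM in depleted and 153, 152 and 143 CPM in replete libraries (−2.42, SE 0.11, edgeR adjusted p = 3.07e-10). HSPB6, known as HSP20, had 10.99, 12.1 and 11.9 CPM in depleted and 55.8, 60.6 and 59.99 CPM in replete libraries (−2.11). For both genes all depleted libraries were below all replete libraries. HSPB8, which works with BAG3 in disposing of aggregates, had 224, 6.87 and 92.99 CPM in depleted and 53.9, 43.9 and 30.6 CPM in replete libraries. Depleted replicate 1 was the highest and depleted replicate 2 the lowest of all 6, so the groups overlapped. On the log2 scale it changed by 1.56 (SE 1.18, edgeR adjusted p = 0.284), and the value rests on single libraries. Without depleted replicate 1 it was 0.45 (adjusted p = 0.747), and without depleted replicate 2 it was 2.12 (adjusted p = 0.0331).

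All 3 cytosolic genes of the HSP110 group, the large HSP70 relatives that act as exchange factors, rose. HYOU1, an exchange factor of the ER that lies outside the rule, fell (−0.61). HSPA4 stood at 289, 340.2 and 319 CPM in depleted and 181, 161 and 172 CPM in replete libraries (1.11, SE 0.08, edgeR adjusted p = 3.66e-08). HSPA4L had 34.5, 38.7 and 38.2 CPM in depleted and 14.6, 17.4 and 16.02 CPM in replete libraries (1.44). HSPH1, itself known as a heat-inducible gene, had 199, 189.8 and 204 CPM in depleted and 143, 139 and 136 CPM in replete libraries (0.73). For each gene the lowest depleted library was above the highest replete library.

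**Figure D2:**
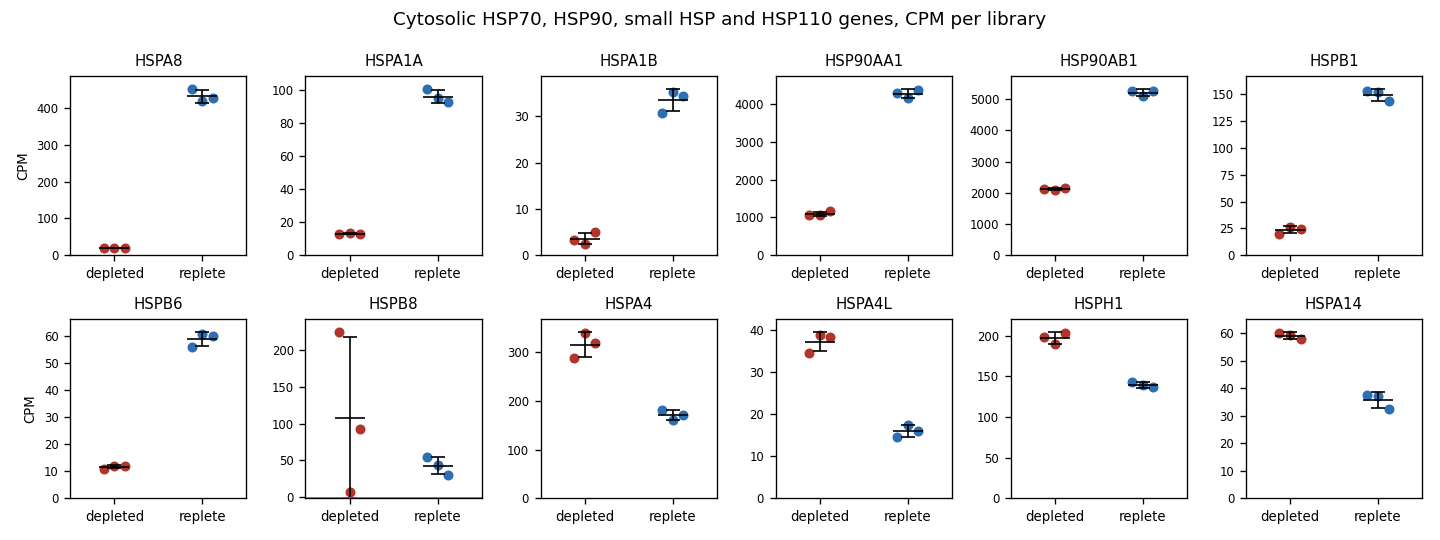
CPM per library of cytosolic HSP70, HSP90, small HSP and HSP110 genes, depleted on the left and replete on the right of each panel, with the mean and SD of 3 libraries. HSPA8 lies at 18.8 to 20.6 CPM in depleted and 418 to 451 CPM in replete libraries, HSPA4 lies higher in depleted libraries, and HSPB8 spans 6.87 to 224 CPM within the depleted group.

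Summed over genes, the CPM level of cytosolic HSP90 was 3219 ± 90.9 in depleted and 9485 ± 212 in replete libraries (SD, n = 3 each). Cytosolic HSP70 summed to 96.1 ± 1.79 CPM in depleted and 605 ± 18.5 CPM in replete libraries. Cytosolic small HSPs summed to 255, 45.8 and 129 CPM in depleted and 263, 256 and 234 CPM in replete libraries, so their groups overlapped. Cytosolic HSP110 and J-domain sums were higher in depleted libraries. They were 550.6 ± 24.5 CPM in depleted and 327 ± 10.6 CPM in replete libraries for HSP110, and for cytosolic J-domain genes 1507 ± 47.8 CPM in depleted and 943 ± 17.5 CPM in replete libraries. All members together took 1.20 to 1.22% of the counts of depleted libraries and 1.83 to 1.87% of those of replete libraries. The sums of the ER members were 4357 ± 171 CPM in depleted and 4229 ± 93.6 CPM in replete libraries, and those of the mitochondrial members 1742 ± 26.4 CPM in depleted and 2149 ± 24 CPM in replete libraries.

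**Figure D3:**
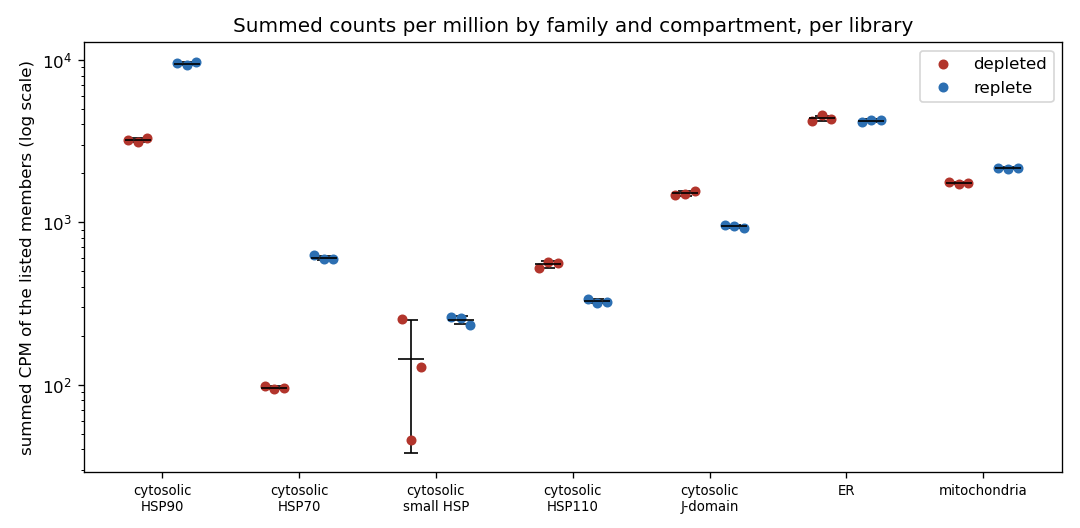
Summed CPM per library of each family or compartment, depleted left of replete, with the mean and SD of 3 libraries. HSP90 (3219 against 9485 CPM) and HSP70 (96.1 against 605 CPM) lie lower in depleted libraries, and HSP110 (550.6 against 327 CPM) and cytosolic J-domain genes (1507 against 943 CPM) lie higher.

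The regulators of the cytosolic set moved in different directions. HSF1 had 31.9, 35.05 and 30.5 CPM in depleted and 42.2, 45.1 and 39.2 CPM in replete libraries, without overlap in CPM. Its change of −0.15 on the log2 scale did not pass (SE 0.10, edgeR adjusted p = 0.192), whereas with library totals it was −0.38 (adjusted p = 0.0038) and without depleted replicate 2 it was −0.21 (0.0446). Exons of HSF1 overlap those of DGAT1. HSF2, a paralog that can pair with HSF1, had 104, 100.1 and 108 CPM in depleted and 81.4, 91.9 and 88.5 CPM in replete libraries (0.48, SE 0.08, edgeR adjusted p = 0.000116). Its depleted libraries all lay above its replete ones.

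BAG3, an exchange factor for HSP70 and a known HSF1 target, had 40.3, 20.04 and 35.2 CPM in depleted and 83.4, 81.5 and 71.8 CPM in replete libraries (−1.08, SE 0.22, edgeR adjusted p = 0.00288). Depleted replicate 2 was the lowest, and the groups did not overlap. CHORDC1, an HSP90-binding protein also called morgana, had 86.9, 55.6 and 79.7 CPM in depleted and 33.3, 30.6 and 30.6 CPM in replete libraries (1.46, SE 0.14, edgeR adjusted p = 1.72e-06). All depleted libraries were higher, depleted replicate 2 the least so.

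Among cytosolic J-domain genes, DNAJB2 rose the most. It encodes a ubiquitin-binding J protein that directs HSP70 clients to the proteasome. DNAJB2 had 86.3, 94.2 and 74.1 CPM in depleted and 6.09, 4.42 and 4.11 CPM in replete libraries (4.33, SE 0.15, edgeR adjusted p = 4.82e-11). DNAJB6, which suppresses aggregation of polyglutamine proteins, had 136, 156 and 154 CPM in depleted and 30.3, 28.3 and 25.03 CPM in replete libraries (2.64, SE 0.10, edgeR adjusted p = 8.03e-11). DNAJB4, a relative of the classical HSP40, had 21.7, 13.6 and 21.6 CPM in depleted and 3.77, 4.80 and 3.31 CPM in replete libraries (2.49, SE 0.22). In these genes every depleted library was above every replete library. For DNAJB4, depleted replicate 2 was the lowest of its group.

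Of the other cytosolic J-domain genes that rose, DNAJC27, a small GTPase with a J domain, changed by 1.70 on the log2 scale, DNAJB5 by 1.68 and the diphthamide synthesis factor DNAJC24 by 1.67. DNAJC5, the cysteine string protein of secretory vesicles, changed by 1.04 and the tetratricopeptide protein DNAJC7 by 0.92. DNAJB1, the heat-inducible HSP40 and a textbook HSF1 target, stood at 110.1, 145 and 118 CPM in depleted and 82.96, 86.5 and 71.5 CPM in replete libraries (0.86, edgeR adjusted p = 1.37e-05). It rose while HSPA1A, HSPA8, HSPB1 and BAG3 fell, and its groups did not overlap. Exons of DNAJB1 overlap those of TECR and exons of DNAJC7 those of CNP and NKIRAS2. DNAJC12 (0.76), DNAJA2 (0.51), the spliceosome-associated DNAJC8 (0.38) and the ribosome maturation factor DNAJC21 (0.31, with overlapping groups) rose less, and DNAJC8 and DNAJC21 did not pass with library totals (adjusted p = 0.0929 and 0.461). DNAJC21 also did not pass without depleted replicate 3 (0.08) or without replete replicate 1, 2 or 3 (0.0644, 0.0801 and 0.0514).

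The 4 cytosolic J-domain genes that fell were DNAJA1, DNAJC9, DNAJC6 and DNAJC13. DNAJA1, a main partner of HSPA8, had 25.6, 24.7 and 26.2 CPM in depleted and 69.6, 66.7 and 68.2 CPM in replete libraries (−1.19, SE 0.09, edgeR adjusted p = 4.87e-08). DNAJC9, which chaperones histones, had 31.2, 25.7 and 34.6 CPM in depleted and 61.8, 50.5 and 51.6 CPM in replete libraries (−0.62). DNAJC6, the auxilin that helps to uncoat clathrin vesicles, had 21.1, 11.3 and 14.7 CPM in depleted and 29.2, 27.5 and 24.2 CPM in replete libraries (−0.55, edgeR adjusted p = 0.0184). The depleted libraries were the lower ones in each. Exons of DNAJC9 overlap those of MRPS16, which had more counts. The call of DNAJC6 was lost when depleted replicate 3 was left out (adjusted p = 0.0729), and likewise replete replicate 1 (0.0648) or 2 (0.051). DNAJC13, of endosomes, changed by −0.34 (adjusted p = 0.0385). Its call was lost when depleted replicate 3 (−0.27, adjusted p = 0.138) or replete replicate 1, 2 or 3 was left out (0.0721, 0.0654 and 0.0744), and also in DESeq2 (0.137) or with no count filter (0.0587).

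**Figure D4:**
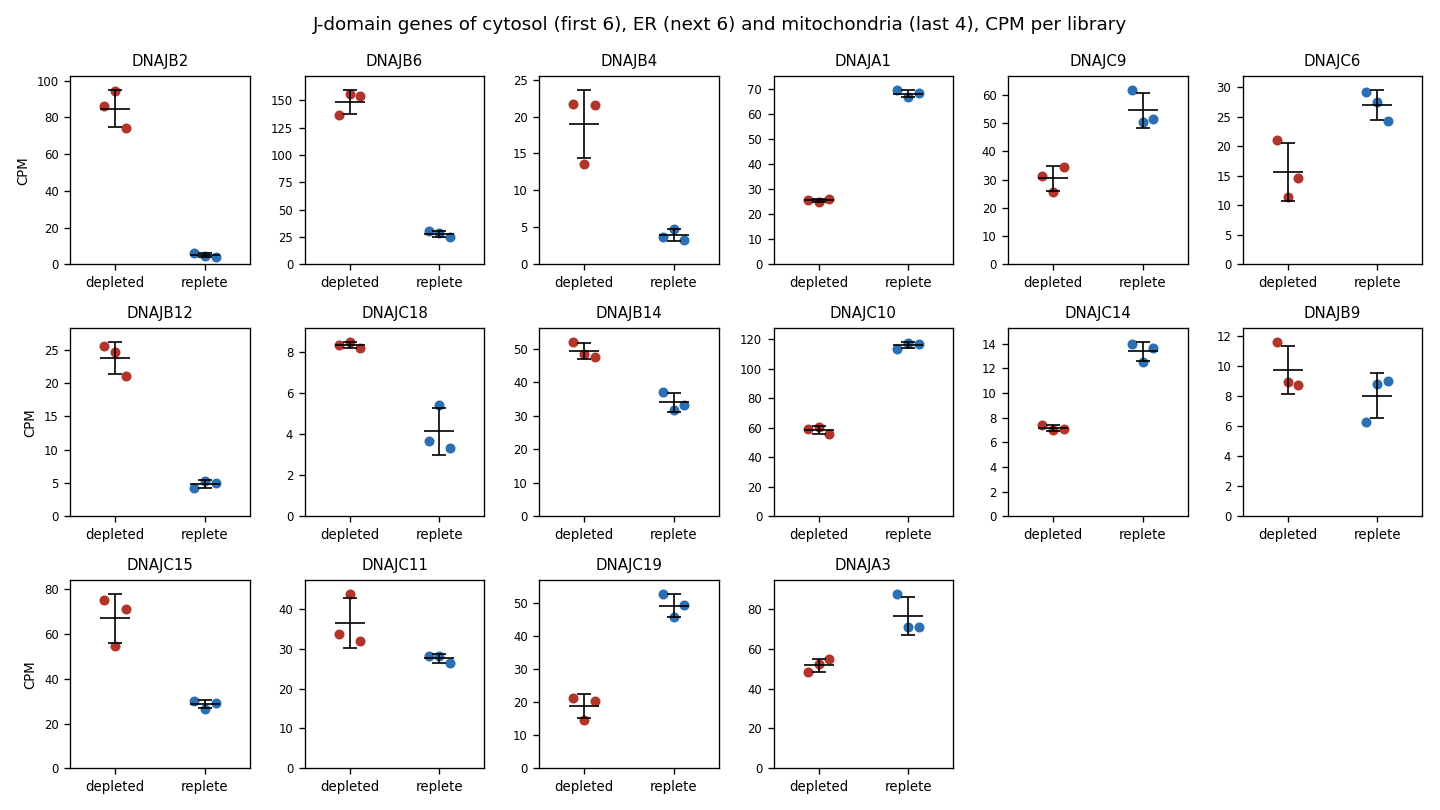
CPM per library of J-domain genes of the cytosol, ER and mitochondria (rows), depleted left of replete, with the mean and SD of 3 libraries. DNAJB2 lies at 74.1 to 94.2 CPM in depleted and 4.11 to 6.09 CPM in replete libraries and DNAJA1 is lower in depleted libraries. The mitochondrial DNAJC15 and DNAJC19 differ in opposite directions.

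Of 14 tested ER members, 2 changed by more than 2-fold, DNAJB12 and DNAJC18, beside 45.4% of all genes. HSPA5, or BiP, is the HSP70 of the ER and the classical readout of its unfolded protein response. It stood at 3283, 3789.8 and 3444 CPM in depleted and 2994, 3150.4 and 3170.4 CPM in replete libraries (0.40, SE 0.07, edgeR adjusted p = 8.24e-05). The lowest depleted library was above the highest replete one, and with library totals the log2 fold change was 0.17 (adjusted p = 0.0183). HSP90B1, or GRP94, is the HSP90 of the ER, and it moved the other way. It had 497, 354 and 468 CPM in depleted and 704, 705 and 684 CPM in replete libraries (−0.44, SE 0.10, edgeR adjusted p = 0.00201). Depleted replicate 2 was its lowest library, and the groups did not overlap. Exons of HSP90B1 overlap those of C12orf73. HSPA13, a microsomal HSP70 relative, had 40.2, 36.2 and 39.8 CPM in depleted and 28.4, 35.9 and 32.6 CPM in replete libraries (0.49), with replete replicate 2 just below depleted replicate 2.

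The ER gene that rose the most was DNAJB12, a membrane J protein that helps to degrade misfolded membrane proteins. DNAJB12 had 25.6, 24.6 and 21.00 CPM in depleted and 4.21, 5.30 and 5.03 CPM in replete libraries (2.52, SE 0.16, edgeR adjusted p = 8.38e-09). Its paralog DNAJB14 had 52.04, 48.3 and 47.5 CPM in depleted and 37.1, 31.8 and 33.1 CPM in replete libraries (0.76), and the related DNAJC18 had 8.34, 8.48 and 8.19 CPM in depleted and 3.66, 5.43 and 3.31 CPM in replete libraries (1.24). In these 3 genes the groups did not overlap, and the depleted libraries were higher.

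DNAJC10, the ER disulfide reductase ERdj5, had 59.2, 60.5 and 55.5 CPM in depleted and 113, 118 and 117 CPM in replete libraries (−0.76, SE 0.08, edgeR adjusted p = 1.34e-06). DNAJC14, an ER membrane J protein, had 7.42, 6.99 and 7.04 CPM in depleted and 13.96, 12.5 and 13.6 CPM in replete libraries (−0.67). Both were lower in every depleted library, and exons of DNAJC14 overlap those of ORMDL2, which had more counts. DNAJB9, DNAJC3 and DNAJB11 are further J proteins of the ER lumen. DNAJB9 changed by 0.52 (adjusted p = 0.0211) and DNAJC3 by 0.38 (adjusted p = 0.00784), and neither passed with library totals (adjusted p = 0.162 and 0.231). DNAJB9 also did not pass without depleted replicate 1 (0.0973) or replete replicate 1 (0.142). The CPM ranges of the groups overlapped for both genes, and exons of DNAJB9 overlap those of THAP5 and PNPLA8. DNAJB11 had a log2 fold change of 0.01 (adjusted p = 0.874), and with library totals it was −0.21 (adjusted p = 0.0237).

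In mitochondria, HSPA9, or mortalin, the HSP70 of the matrix and of protein import, rose. It had 312, 293 and 285 CPM in depleted and 228, 218 and 218 CPM in replete libraries (0.65, SE 0.07, edgeR adjusted p = 1.23e-06). HSPD1 and HSPE1 encode the HSP60 chamber and its HSP10 lid, and they lie head to head at a shared promoter. HSPD1 had 1061, 1051 and 1078 CPM in depleted and 1316, 1325 and 1349 CPM in replete libraries. All its depleted libraries were lower in CPM, but its change of −0.10 on the log2 scale (SE 0.05, edgeR adjusted p = 0.127) did not pass, whereas with library totals it was −0.32 (adjusted p = 8.93e-05) and without depleted replicate 2 it was −0.09 (0.0497).

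HSPE1 fell, with 205, 194 and 194 CPM in depleted and 412, 395 and 403 CPM in replete libraries (−0.80, SE 0.06, edgeR adjusted p = 9.93e-08). Per 100 counts of HSPD1, HSPE1 had 19.4, 18.5 and 18 in depleted and 31.4, 29.8 and 29.9 in replete libraries, a ratio that does not depend on scaling. The log2 ratio differed by −0.70 (SE 0.04). Its exact permutation p was 0.1 (0.133 adjusted), the smallest possible, for a pair chosen after its values were seen. Exons of both genes overlap each other in the annotation, and HSPE1 shares exons with the readthrough HSPE1-MOB4.

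DNAJC15 and DNAJC19 are related J proteins of the import motor at the inner membrane, and they moved in opposite directions. DNAJC15 had 75.2, 54.6 and 71.1 CPM in depleted and 30.2, 26.6 and 29.3 CPM in replete libraries (1.45, SE 0.12, edgeR adjusted p = 1.52e-07). DNAJC19 had 21.4, 14.8 and 20.3 CPM in depleted and 52.7, 45.7 and 49.4 CPM in replete libraries (−1.16, SE 0.13, edgeR adjusted p = 2.9e-06). Neither gene had overlapping groups. DNAJC11, of the cristae-organizing complex, rose by 0.63 on the log2 scale, with exons that overlap those of THAP3, and DNAJA3, the matrix J partner of HSPA9, fell by 0.34, with 48.2, 52.3 and 54.7 CPM in depleted and 87.4, 70.98 and 70.99 CPM in replete libraries.

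Outside these compartments, HSPA12A, a distant HSP70 relative, had 1.47, 0.916 and 0.577 CPM in depleted and 6.98, 7.83 and 8.61 CPM in replete libraries (−2.69). HSPB11, which despite its name is the ciliary transport subunit IFT25, had 24.00, 19.7 and 20.2 CPM in depleted and 38.7, 39.1 and 35.9 CPM in replete libraries (−0.60). Both were lower in every depleted library.

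A list of 29 co-chaperones and partners outside the rule was read beside the members. Of these, 7 rose (24.1%), 12 fell (41.4%) and 10 did not pass, and their median log2 fold change was −0.09. Of all genes tested, 39.1% rose and 39.4% fell, so the share that fell is near the background. FKBP4, an HSP90-bound immunophilin of steroid receptors, had 6.32, 9.28 and 7.15 CPM in depleted and 84.4, 79.9 and 86.6 CPM in replete libraries (−3.24). AHSA1, which stimulates the ATPase of HSP90, had 74.03, 80.8 and 88.6 CPM in depleted and 366, 349 and 364 CPM in replete libraries (−1.92). TRAP1, the mitochondrial HSP90, fell by 2.02 on the log2 scale. Those that rose included the HSP70 exchange factors BAG1 (1.58) and BAG5 (1.07). The HSP90 partner TTC4 also rose, at 71.6, 83.4 and 77.9 CPM in depleted and 30.5, 32.3 and 33.2 CPM in replete libraries. All 5 listed partners of the ER chaperones fell, among them HYOU1, an exchange factor for HSPA5 (−0.61), and SDF2L1 (−1.12). The smallest of these changes were those of SIL1 (−0.27, edgeR adjusted p = 0.0402) and CNPY3 (−0.43, edgeR adjusted p = 0.0134).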

How the data were processed

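The files hold whole-number counts per gene symbol, 1 library per file, deposited by the authors without normalization. Bowtie2, edgeR and hg19 appear in the submitters' processing notes, while the counter, its strand setting and its annotation are not given in the sources used here. Counts of symbols on several entries were summed.

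All 6 libraries were fitted in edgeR 4.0.16 (R 4.3.3) with filterByExpr (minimum count 10), TMM factors (0.917 to 0.929 in depleted, 1.08 to 1.09 in replete libraries) and the robust quasi-likelihood test, two-sided, with Benjamini-Hochberg adjustment over 12739 genes and a threshold of 0.05. The SE of an edgeR log2 fold change was taken as its absolute value over the square root of the F statistic. The script was tested on simulated counts in which few genes changed and no library stood apart. That setting differs from these data, so it did not test the scaling used here. Members and lists were chosen with earlier results of these data known. Named genes were every tested HSPA, HSP90, HSPB, HSPD1, HSPE1 and HSPH1 member, both HSFs, BAG3 and CHORDC1, the 3 J-domain genes with the largest change in each direction per compartment (mean CPM of at least 5) and the 3 co-chaperones with the smallest p in each direction. Other names were chosen after their values were seen. Motifs were searched in RefSeq promoters, and exon overlaps were read from GENCODE 29 (GRCh38), so no gene positions are given on hg19. Proteins were not analysed here. Alternatives were other scalings and count filters, DESeq2 1.42.0, limma-voom (limma 3.58.1), a test against 1.5-fold, a replicate block and omitting libraries in turn. Ratios of few counts have exact 95% intervals. Tables used Python 3.11.15.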

Additional observations from a re-analysis of the deposited data

How the results depend on the processing

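Of 46 named genes, 32 kept their direction and side of the threshold in every alternative that tested them, and none that passed reversed. DNAJC18, HSPA12A and HSPA2 were not tested at a mean CPM of at least 10. Against a change of 1.5-fold (glmTreat), 20 members rose and 16 fell, while 3324 of all genes rose (26.1%) and 3455 fell (27.1%). By compartment in that test, 16 cytosolic members rose and 10 fell, 3 ER members rose and 1 fell. Of the mitochondrial members, 1 rose and 2 fell. With library totals alone, 27 members rose and 29 fell, against 4132 and 5925 of all genes, and the median log2 fold change was 0.05 for members, 0.28 for the cytosol, 0.18 for the ER, −0.36 for mitochondria and −0.25 for all genes. In that setting 6 of 14 ER members rose and 4 fell. HSF1 and HSPD1 passed as lower with library totals, with upper quartile factors, at a mean CPM of at least 10 and without depleted replicate 2. Leaving out 1 library at a time gave 30 to 35 higher and 21 to 28 lower members. The replicate numbers were not taken as pairs, since the labels do not tie them to a shared culture or day. Deviations of same-numbered libraries correlated by 0.197, 0.047 and 0.028, and those of differently numbered libraries by −0.148 to 0.096. These values do not decide on pairing. With a replicate block, 32 members rose and 24 fell. The block ended the calls of DNAJC13 (adjusted p = 0.0535) and DNAJC25-GNG10 (0.0634). With no count filter, 81 members were tested, 33 rose and 26 fell.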

Other observations

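Of the 12 pseudogene, antisense and readthrough members, 5 were tested. DNAJC3-AS1, named DNAJC3-DT in RefSeq and on the strand opposite to DNAJC3, fell by 2.37 on the log2 scale. HSP90B2P, a pseudogene of HSP90B1, fell by 0.34, and per 100 counts of HSP90B1 it had 9.87, 9.51 and 10.7 in depleted and 8.72, 10.1 and 9.29 in replete libraries, which overlap (exact permutation p = 0.4). HSP90AB4P fell by 0.74. Neither call was stable when single libraries were left out: HSP90B2P did not pass without replete replicate 2 (adjusted p = 0.128) or 3 (0.0615), nor HSP90AB4P without depleted replicate 3 (0.0668) or replete replicate 1 (0.0941). Reads of such copies may be shared with their parent genes. HSPE1-MOB4 had 16.0, 2.52 and 13.2 CPM in depleted and 33.3, 31.8 and 31.5 CPM in replete libraries. It did not pass over all libraries (−1.36, edgeR adjusted p = 0.0804) and passed without depleted replicate 2 (−0.90, adjusted p = 2.39e-08).

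Some members did not pass the filter on low counts. DNAJC9-AS1, antisense to DNAJC9, had 20 counts in depleted and 1 in replete libraries, a ratio of 17.3 with an interval of 2.77 to 717. DNAJC17, a J protein of the spliceosome, had 5 counts in depleted and 23 in replete libraries (ratio 0.188, interval 0.0559 to 0.506). DNAJA4, which is known as sterol-responsive, had 10 counts in each group (ratio 0.865, interval 0.323 to 2.32), and no difference was detectable at this depth.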
